A study of Mus musculus with 20 samples.

Results

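The comparison set kidneys of wild type C57BL/6J males given testosterone for 4 days against kidneys of wild type C57BL/6J males given vehicle for 4 days, all of them after orchidectomy, the surgical removal of the testes. It takes in 10 of the 20 libraries of the series, 5 in each group, chosen by the group that the headers of the deposited tables give for each library, and every gene counted in them. The other 10 libraries came from ARLmon/Y males, whose androgen receptor allele is known to disturb pairing of the receptor's ligand-binding domains, under the same surgery and the same treatments. Each library was made from kidney with a stranded mRNA kit. Vehicle therefore stands for castrated mice with little androgen and not for intact males, and the tissue mixes all cell types of the organ. The dose of testosterone and the age of the mice are not given in the sources used here, nor whether the libraries of a group stem from different animals. The p-values therefore measure the spread between these samples, which may be technical.

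The androgen receptor is a nuclear receptor: bound by testosterone or dihydrotestosterone, it enters the nucleus and binds palindromic DNA elements near its target genes. The mouse kidney is one of the tissues in which it is best known to act. Proximal tubule cells, which take back most of the filtered solutes and also handle drugs, steroids and fatty acids, are larger in males, and many of their enzymes and carriers are known to be sex biased. Kap (kidney androgen-regulated protein), Odc1 (ornithine decarboxylase) and Gusb (beta-glucuronidase) are its classic renal targets.

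Reads assigned to genes numbered 8618311 to 38101526 in the vehicle libraries and 8342000 to 15422018 in the testosterone libraries. Mitochondrial genes took 7.91% to 10.4% of the counts. On the first principal component of the wild type libraries, with 38.04% of the variance, the vehicle libraries lay between -47.82 and -15.84 and the testosterone libraries between 23.46 and 37.68. Vehicle libraries GC078604 and GC078606 lay farthest out at -47.82 and -47.71, and GC078604 was also lowest on the second component (16.64% of the variance), at -42.84. Markers of the labelled tissue were present in every library: Lrp2, the endocytic receptor megalin, ran from 1504 to 2859 CPM, and Umod, the uromodulin gene of the thick ascending limb, from 1519 to 3253. Of 12 adrenal gland markers 2 were abundant enough to be tested, and their summed level was at most 9.22 CPM.

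Testosterone changed 2444 of the 15549 genes tested (15.7%), of which 1455 rose (9.36%) and 989 fell (6.36%). Called here means a Benjamini-Hochberg adjusted p below 0.05 in edgeR's quasi-likelihood test. The fit took in all 20 libraries, so the spread behind each p was estimated from the ARLmon/Y libraries too. With the 10 wild type libraries alone, 1148 of 14539 genes rose and 778 fell. Levels are CPM, counts scaled by the library total times its TMM factor, so that summed CPM can differ between libraries. Log2 changes are given as testosterone minus vehicle with their standard error. Most changes were small: 698 risers and 493 fallers moved by less than 1.5-fold. At least 2-fold changes were found in 340 genes that rose (2.19%) and 182 that fell (1.17%), and more than 8-fold changes in 36 and 13. In 1952 genes (12.6%) the 5 testosterone libraries did not overlap with the 5 vehicle libraries, and 1681 of these were called. A call is described as steady where it kept its direction and its call, with a log2 change within 0.58, in every fit that left out 1 of the 10 wild type libraries. This held for 1538 calls, 1041 higher and 497 lower. Without GC078604 and GC078606 together, 1213 genes rose and 658 fell, and without testosterone library GC078610 alone 1139 rose and 614 fell. Of the genes named below, Akr1c19, Atp13a2, Ghr, Gpx3, Hnf4a, Hsd3b7, Lgmn, Mt1, Rora, Scnn1a, Slc1a4, Slc36a1 and Tyms kept their direction but not their call without that pair of vehicle libraries.

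The balance of higher to lower calls depended on the scaling. The testosterone libraries had TMM factors of 0.869 to 0.936 and the vehicle libraries 0.963 to 1.03. Scaled by library size alone, all genes had a median log2 change of -0.18 in place of -0.03, and 897 genes rose and 2687 fell, so that 25.0% of the calls were higher in place of 59.5%. In the log2 values that the authors deposited, tested with limma, the split was 1033 to 2677 (27.8% higher) and the median was -0.16. Changes of less than about this shift in size have a direction that rests on the scaling.

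**Figure D1:**
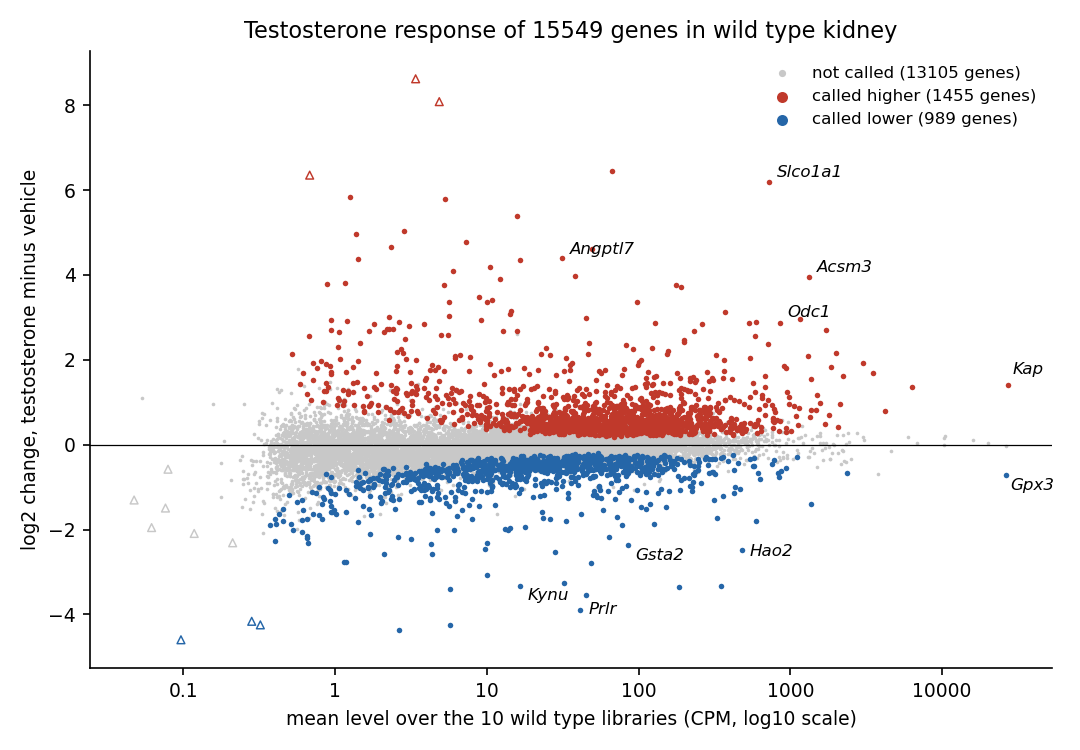
Log2 change with testosterone (vertical axis) against the mean level over the 10 wild type libraries (horizontal axis, CPM on a log scale) for each of 15549 tested genes; red genes were called higher, blue ones lower, grey ones were not called. Open triangles are genes with at most 3 reads in a group, whose fitted change depends on the count added before taking logs. The 1455 genes called higher reach farther from 0 than the 989 called lower.

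Of 18 genes for the receptor, its chaperones and its cofactors 3 rose (Fkbp5, Dnaja1 and, not steady, Hsp90aa1) and none fell, and the list's median was 0.20, against -0.03 for all genes. Fkbp5, an immunophilin of the steroid receptor complex and a textbook androgen target, rose from 67.05 ± 39.1 to 178 ± 50.8 CPM (SD, n = 5 per group here and throughout; log2 1.42 ± 0.28). Dnaja1, which encodes a co-chaperone of Hsp70, rose by 0.73 ± 0.13. Of 12 genes known to answer both androgen and glucocorticoid receptors, Fkbp5 rose, the metallothionein gene Mt1 fell without being steady (log2 -0.84 ± 0.27), and the other 10 were not called. These shares, 8.33% each way, were near those over all genes.

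Of 16 kidney genes long known to be raised by androgen 15 rose, all of them steady, and the median log2 change was 2.52. The list was written with these results known, so its count is a description. Odc1 makes putrescine from ornithine, and it stood at 187, 206, 263, 189.5 and 186 CPM in vehicle libraries GC078602 to GC078606 and at 1637, 1329.7, 1457, 1552 and 1572 in testosterone libraries GC078607 to GC078611, the order used for all lists of 5 values. The lowest testosterone library was far above the highest vehicle library, and the rise was 7.32-fold (log2 2.87 ± 0.12, edgeR adjusted p = 9.15e-13). Levels of Kap were 13352, 11889, 28612, 10162 and 9972 CPM without and 45478, 39180.5, 40679, 41127 and 30856 CPM with the hormone. Here vehicle library GC078604 held about as much as the lowest testosterone library, GC078611, although the groups did not overlap, and the log2 change of 1.42 ± 0.32 became 1.80 without GC078604. Gusb (log2 1.78 ± 0.10), Hsd17b11 (2.89 ± 0.10) and Cyp2j13 (3.13 ± 0.27) had much tighter groups. The 1 member not called was Timd2, a cell surface receptor of the TIM family, at 84.7 ± 11.4 and 99.7 ± 12.3 CPM.

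Of 12 genes known to be higher in female kidneys 7 fell, 5 of them steady, and 2 rose. Prlr, the prolactin receptor, was at 114, 122, 52.2, 49.7 and 50.3 CPM with vehicle and at 3.67, 6.41, 5.04, 4.798 and 6.24 with testosterone. Its vehicle libraries fell into a pair above 110 and 3 at about 50, all of them well above every testosterone library. Hao2, a peroxisomal oxidase of long-chain hydroxy acids, went from 817 ± 322 to 147 ± 30.3 CPM (log2 -2.48 ± 0.25), with vehicle library GC078606 at 323 CPM nearest to the testosterone group. Kynu, kynureninase of tryptophan breakdown, fell by 3.32 ± 0.18 on the log2 scale. Against the list, Slco1a6 (log2 0.78 ± 0.18) and Tmigd1, an adhesion molecule of tubule cells (0.90 ± 0.09), rose.

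**Figure D2:**
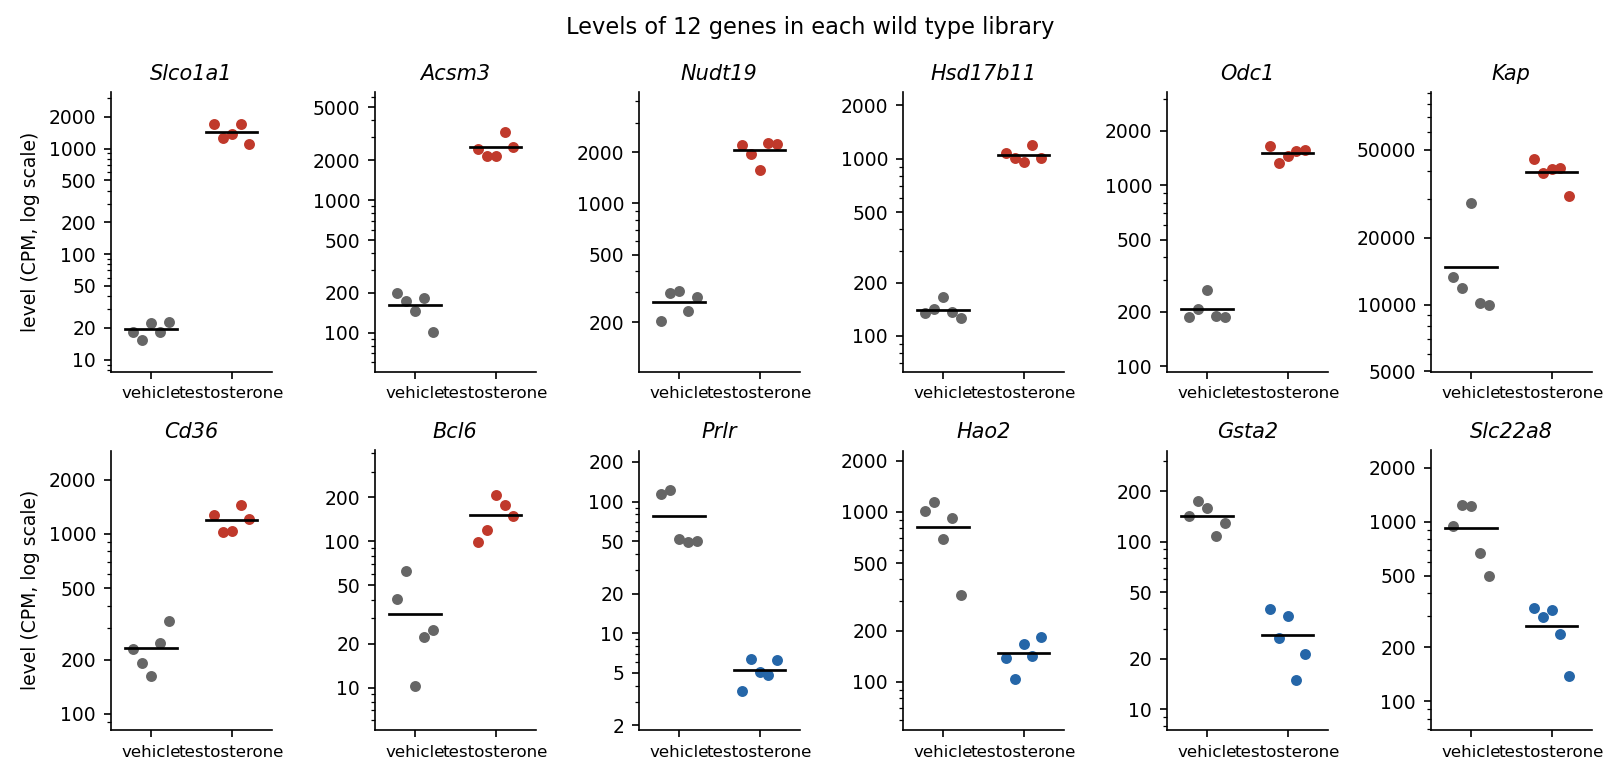
Level (vertical axis, CPM on a log scale) of 12 genes in the 5 vehicle (grey) and 5 testosterone libraries (red for genes called higher, blue for genes called lower) of wild type kidney; lines are group means. The groups do not overlap for any of the 12 genes, and Bcl6 shows the widest vehicle group, 10.2 to 62.5 CPM.

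In transcripts gained, a few abundant genes led. The sum over genes that rose went up by 144285 CPM and the sum over those that fell dropped by 38663, and the 10 largest made up 35.8% of the gain and 48.1% of the loss. Scaled by library size alone, the gain was 113591 CPM. The TMM factors were lower in the testosterone libraries, which raises their summed CPM. The gap between gain and loss therefore rests in part on the scaling. Kap alone went from 1.46% to 3.54% of all counts. Next came Acsm2, a mitochondrial medium-chain acyl-CoA synthetase, which rose from 3548 ± 717 to 9169 ± 967 CPM. Sepp1, which encodes the selenium carrier selenoprotein P, rose from 1651 ± 353 to 5365 ± 751 CPM. The cytochrome P450 gene Cyp4b1 (1268 to 4787 CPM), the dipeptidase gene Cndp2 (733 to 3277) and the phospholipid flippase gene Atp11a (459 to 2981) followed. Slc27a2, a fatty acid transporter and acyl-CoA synthetase, went from 3084 ± 472 to 5381 ± 523 CPM, a rise of 1.74-fold from a high level.

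On the side of the losses, Gpx3, the glutathione peroxidase that the kidney secretes into plasma, outweighed all others, going from 32728 ± 7951 to 19890.3 ± 2086 CPM. This was a fall of 1.65-fold (log2 -0.72 ± 0.16), and Gpx3 went from 3.26% to 1.79% of all counts, and without GC078604 and GC078606 the log2 change was -0.45 and the call was lost (edgeR adjusted p = 0.068). Spp1, which encodes osteopontin, went from 1986 ± 583 to 755 ± 159 CPM. Lgmn, a lysosomal protease, Igfbp7, a secreted IGF-binding protein, and Gatm, which makes the precursor of creatine, each lost more than 300 CPM. Gas6, the ligand of the TAM receptor kinases, fell from 628 ± 77.2 to 302 ± 5.25 CPM with a testosterone group of 297 to 309.6 CPM.

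**Figure D3:**
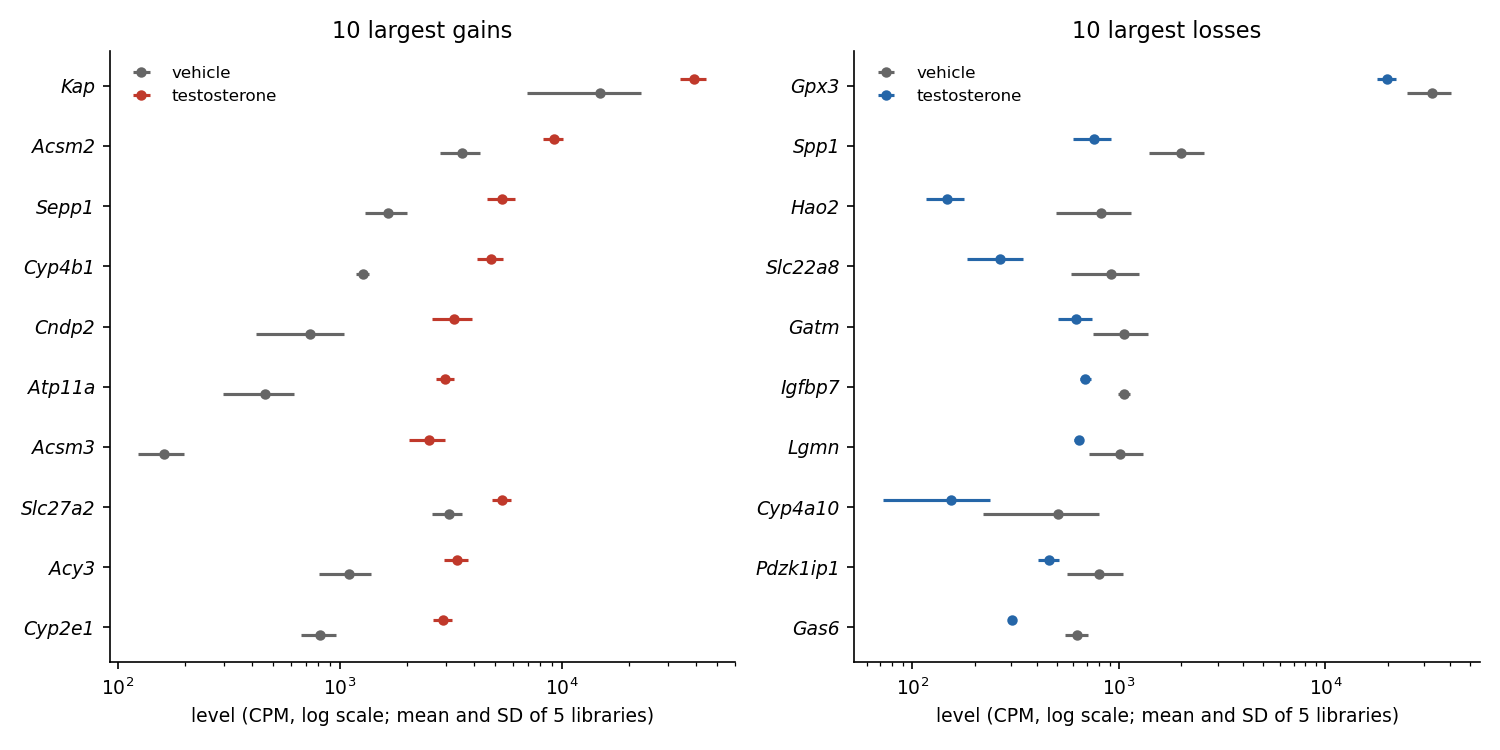
Mean level (horizontal axis, CPM on a log scale, bars show SD of 5 libraries) with vehicle (grey) and testosterone (red or blue) of the 10 steady genes that gained the most and the 10 that lost the most CPM. Kap and Gpx3 stand above all others in both groups.

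The largest fold rises came from genes low with vehicle. Slco1a1 (chromosome 6, 141907282 to 141946962, minus strand, GRCm38), an uptake transporter for organic anions and steroid conjugates, was at 18.5, 15.4, 22.4, 18.3 and 22.9 CPM and then at 1717, 1260.3, 1377, 1704 and 1098, a rise of 73.7-fold. Synpr, a synaptic vesicle protein gene, had 3 reads over the 5 vehicle libraries and 2.57 to 18.9 CPM with testosterone. RP24-81A22.2, a transcript known only by its clone name, went from 1.43 to 133 CPM. The other rises of more than 8-fold on steady calls came from genes of unlike function. They include Ctxn3 (cortexin 3, log2 5.38 ± 0.27), Cntnap5a (a cell adhesion protein of neurons, 5.79 ± 0.33), Rnf180 (a ubiquitin ligase, 4.78 ± 0.36) and Lipo2 (a lipase family member, 5.05 ± 0.47). Ccl28, a chemokine of epithelia, ran from 1.71 to 7.72 CPM with vehicle and from 59.7 to 151 with testosterone. Col6a6 (4.18 ± 0.39), Tbx10 (4.09 ± 0.31), Kif20b (3.97 ± 0.25) and Smcp (3.77 ± 0.35) rose too. They encode a collagen VI chain, a T-box transcription factor, a kinesin of cell division and a protein of sperm mitochondria.

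Among steady calls of at least 5 CPM the largest falls were smaller than the largest rises. After Prlr came Kcnip2, a regulatory subunit of potassium channels, at 7.56, 8.197, 6.72, 9.299 and 20.9 CPM and then 1.49, 1.33, 0.398, 0.9595 and 0.693 CPM. GC078606 stood above the other vehicle libraries, yet without it the log2 change was still -3.03. Gc, the vitamin D-binding protein, went from 58.3 ± 43.4 to 6.03 ± 0.627 CPM, and GC078606 held the most of it too, at 135 CPM. Stab2, a scavenger receptor for hyaluronan, fell by 2.35 ± 0.21 on the log2 scale. Pla2g5, a secreted phospholipase A2, ran from 14.8 to 19.9 CPM with vehicle and from 2.17 to 4.35 with testosterone. Acnat1, which conjugates fatty acids to amino acids, changed by -1.99 ± 0.27. The noncoding RNA gene Halr1 changed by -2.02 ± 0.30. Ceacam2, a cell adhesion molecule, had 1 of the most uneven vehicle groups, 28.1, 16.4, 11.9, 45.8 and 11.04 CPM.

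Genes for coenzyme A and its thioesters changed in both directions. Coenzyme A carries acyl groups, pantothenate kinases open its synthesis, and Nudt enzymes split it. Of 34 tested members 10 rose, 8 fell, and 17 of these 18 calls were steady. Acsm3 was at 198, 175, 147, 184 and 102 CPM and then at 2440.1, 2167, 2135, 3268 and 2529 CPM, which is 15.5-fold. Nudt19, a peroxisomal enzyme that breaks coenzyme A down, was at 204, 298, 306, 233 and 280.1 CPM and then at 2215, 1954, 1567, 2271 and 2257. Neither gene had a testosterone library within 5-fold of a vehicle library. On the side of synthesis, the pantothenate kinase gene Pank1 rose from 169 ± 27.1 to 562 ± 82.9 CPM (log2 1.73 ± 0.13). Acot12, a thioesterase for acetyl-CoA, rose by 1.20 ± 0.12. Against these, Acsl1, which activates long-chain fatty acids, went from 503 ± 108 to 217 ± 48.7 CPM (log2 -1.21 ± 0.16). The thioesterase gene Acot3 changed by -1.21 ± 0.17, and Baat, which conjugates bile acids and fatty acids to taurine or glycine, by -2.10 ± 0.28.

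Of 39 fatty acid oxidation genes 13 rose (11 steady) and 6 fell (4 steady), and with library size as the only scaling 8 rose and 9 fell. Cd36, the fatty acid translocase of the cell surface, was at 229, 193, 162, 249 and 329 CPM with vehicle and at 1274, 1022, 1039.8, 1455 and 1209.9 with testosterone, with a clear gap between the groups. The peroxisomal oxidase gene Acox3 rose by 0.98 ± 0.09. Crot, which exports shortened acyl chains from the peroxisome, went from 305 ± 69.8 to 834 ± 238 CPM. Bdh1, which interconverts the ketone bodies, rose by 1.11 ± 0.20. Among those that fell were the thiolase genes Acaa2 (log2 -0.91 ± 0.14) and Acaa1b (-0.99 ± 0.19), the former mitochondrial and the latter peroxisomal. Abcd3, a pump that loads fatty acids into peroxisomes, rose by 0.45 ± 0.09. The 42 nuclear genes of the respiratory chain had a median of -0.02 and 1 call, Cycs, which encodes cytochrome c (53.3 to 106 CPM, log2 0.99 ± 0.11).

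In sterol and fatty acid synthesis 6 of 36 genes rose and 2 fell, against 4 and 9 with library size as the only scaling. Hmgcs1, the first committed step towards mevalonate, went from 382 ± 92.2 to 981 ± 109 CPM, and Idi1, which isomerises isopentenyl units, from 2.33 ± 1.44 to 10.1 ± 2.87. Me1, the malic enzyme that supplies NADPH, rose by 0.96 ± 0.11. Fads1, a fatty acid desaturase, went the other way (-0.52 ± 0.09).

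Steroid-metabolising enzymes were raised more often than lowered: 9 of 22 rose, 8 of them steady, and 4 fell, 3 of them steady, or 1 without GC078604 and GC078606. Hsd17b11 oxidises steroids and associates with lipid droplets, and it was read at 135, 142, 165, 136 and 126 CPM with vehicle and at 1071, 1003, 962, 1188 and 1007 CPM with testosterone. No vehicle library came near the testosterone range. Hsd11b1, which regenerates active glucocorticoid, rose from 63.9 ± 9.900 to 459 ± 99.9 CPM. Both steroid 5-alpha-reductase genes, whose enzymes make dihydrotestosterone, rose: Srd5a2 from 1.81 ± 0.657 to 19.7 ± 7.79 CPM and Srd5a1 from 21.7 ± 5.31 to 47.4 ± 9.77. Akr1c14, a 3-alpha-hydroxysteroid dehydrogenase, went from 62.04 ± 26.6 to 399 ± 64.1 CPM and Cyp7b1, an oxysterol hydroxylase, by 1.56 ± 0.25 on the log2 scale. Hsd17b14 (-1.03 ± 0.28), Akr1c19 (-0.59 ± 0.14) and Hsd3b7 (-0.38 ± 0.09) fell. Akr1c21, another hydroxysteroid dehydrogenase, was at 1833 ± 813 and 1428 ± 300.1 CPM and was not called.

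Retinoid and alcohol metabolism was split, with 5 of 22 genes higher and 7 lower. Adh1, an alcohol dehydrogenase that also oxidises retinol, rose from 389.9 ± 100.3 to 1418 ± 325 CPM, and Adh5, which handles formaldehyde bound to glutathione, by 0.73 ± 0.10. Aldh8a1, a retinal dehydrogenase, rose by 0.50 ± 0.09. Dhrs3, which reduces retinal back to retinol, fell from 288 ± 46.6 to 146 ± 12.5 CPM, and Aldh2, the mitochondrial acetaldehyde dehydrogenase, fell by 0.45 ± 0.10 on the log2 scale. Rdh11, another retinal reductase, changed by -0.44 ± 0.10.

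Carriers for organic anions and cations changed in both directions. Of 9 Slco genes 5 rose and 2 fell, of 22 Slc22 genes 7 rose and 3 fell, and of 9 urate, Slc17 and Mate transporters 6 rose and none fell. Slco3a1 went from 124 ± 23.9 to 345 ± 42.7 CPM, Slco1a4 rose by 2.06 ± 0.39, and Slco2b1 changed by -0.70 ± 0.10. The basolateral organic anion exchangers moved apart. Slc22a6, known as OAT1, was at 637, 783, 965, 828 and 802 CPM and then at 1475, 1502, 1484, 1476 and 1391, while Slc22a8, known as OAT3, was at 952, 1248, 1231, 667 and 496 and then at 331, 293, 322, 236 and 138. For each of the 2 genes the groups were apart, in opposite directions. Slc22a30 (2.47 ± 0.29) and Slc22a28 (1.60 ± 0.24), of the organic anion branch, rose, and so did the organic cation transporter gene Slc22a2 (1.06 ± 0.14). Slc22a29 went from 7.51 to 1.25 CPM, a value to be read with care since limma on the deposited log2 values gave it the opposite sign (0.65). Slc22a23 changed by -0.72 ± 0.12. Slc17a3, a urate and phosphate carrier of the brush border, rose from 332 ± 48.9 to 1028 ± 120.4 CPM, and Slc17a1 (0.62 ± 0.08), Slc17a4 (1.07 ± 0.22) and the cation extruder gene Slc47a1 (0.58 ± 0.11) rose less.

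Pumps of the ABC family went the other way, with 5 of 18 lower, 3 of them steady, and 1 higher. There were 3 lower when GC078602, GC078605, GC078607 or GC078610 alone was left out. With library size as the only scaling 8 were lower and 1 higher. Abcb1b, a P-glycoprotein gene, was at 13.4, 17.9, 8.76, 16.6 and 26.6 CPM with vehicle and at 1.77, 3.63, 2.52, 3.47 and 3.37 with testosterone, and its paralog Abcb1a changed by -1.32 ± 0.24. Every testosterone library lay below every vehicle library for Abcb1b. Abcc4, an exporter of organic anions and cyclic nucleotides, fell from 69.1 ± 14.7 to 32.3 ± 2.93 CPM. The 1 that rose was Abcd3, described above, which loads peroxisomes and is not an efflux pump.

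Among 29 amino acid carriers 4 rose and 7 fell, or 2 and 13 with library size as the only scaling and 1 and 7 without GC078604 and GC078606. Slc7a13, a cystine and acidic amino acid carrier of straight proximal tubules, was at 209, 226, 148, 199 and 66.03 CPM and then at 893, 996, 908, 1265 and 965, with GC078606 the lowest vehicle library. The basolateral light chains Slc7a7 (-1.10 ± 0.13) and Slc7a8 (-0.88 ± 0.10) fell, and so did their partner Slc3a2, the heavy chain 4F2hc, from 295 ± 47.2 to 149 ± 6.16 CPM. Slc7a9, the light chain of the apical cystine carrier, fell by 0.65 ± 0.10 on the log2 scale. Slc38a3, a glutamine carrier, went from 70.02 ± 17.5 to 30.6 ± 4.55 CPM. Slc1a4 (0.76 ± 0.21) and Slc36a1 (0.40 ± 0.10, not called with library size as the only scaling), carriers of small neutral amino acids, rose.

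Of 21 genes for glucose, anion and proton transport in the proximal tubule 3 rose and 4 fell, 1 of the latter steady, and 1 fell without GC078604 alone or GC078610 alone. Slc5a8, a sodium-coupled lactate carrier, went from 131 ± 40.6 to 432 ± 56.7 CPM and the exchanger gene Slc9a8 from 115 ± 34.1 to 285 ± 53.5. The apical sulfate carrier gene Slc13a1 was at 549.9, 485, 426, 605 and 871 CPM with vehicle and in a much narrower range, 258 to 287, with testosterone, while its basolateral counterpart Slc26a1 rose by 0.49 ± 0.08. In the sulfation list, where 6 of 19 genes rose and 7 fell (3 without GC078604 and GC078606), Papss1, which makes the sulfate donor PAPS, rose by 1.21 ± 0.12, and Sult1c2, a sulfotransferase, changed by -0.64 ± 0.10. At the brush border Ace, Mep1a and Ggt1, which encode angiotensin-converting enzyme, meprin alpha and gamma-glutamyltransferase, rose, by 1.57 ± 0.27, 0.71 ± 0.16 and 0.82 ± 0.16. Alpl, tissue-nonspecific alkaline phosphatase, fell from 447 ± 86.6 to 183 ± 22.9 CPM, and the aminopeptidase gene Xpnpep2 changed by -0.94 ± 0.24. The megalin gene Lrp2 did not pass the test (log2 0.01 ± 0.17).

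Cytochromes P450 and conjugating enzymes changed widely. Of 24 Cyp2 genes and their partners 9 rose and 3 fell, or 6 and 6 with library size as the only scaling. Cyp2e1, which oxidises ethanol and acetone, rose from 814 ± 143 to 2912 ± 290.2 CPM. The epoxygenase gene Cyp2j13, the epoxide hydrolase gene Ephx2 and Cyb5a, which passes electrons to P450 enzymes, rose by 3.13 ± 0.27, 1.09 ± 0.10 and 1.11 ± 0.12. Cyp2d26 was at 173, 209.6, 201, 209.5 and 194 CPM and then at 62.9, 52.1, 57.3, 35.9 and 62.99, and Cyp2c44 changed by -1.74 ± 0.21. Of 14 UDP-glucuronosyltransferases, which join sugars to steroids and drugs, 7 rose and 3 fell. Ugt2b38 rose from 500.1 ± 112 to 2126 ± 409 CPM, Ugt2b37 from 23.97 ± 2.96 to 328 ± 77.7, and Ugt8a, which makes galactosylceramide, from 67.6 ± 11.9 to 183 ± 23.03. Ugt1a2 fell from 5.06 to 0.217 CPM (log2 -4.38, and -5.13 without GC078611), and it shares exons with other Ugt1a genes, among them Ugt1a7c at 192 CPM, so its reads could have been split.

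None of 22 glutathione S-transferase genes rose and 9 fell, 6 of them steady, with 5 lower when GC078604 and GC078606 were left out. The enzymes attach glutathione to reactive compounds. Gsta2 was at 141, 174, 158, 108 and 129 CPM with vehicle and at 39.7, 26.6, 35.9, 15.1 and 21.3 with testosterone, with no overlap. Gsta3 fell by 1.10 ± 0.15 on the log2 scale, and Gsto1 changed by -0.95 ± 0.14. Mgst1, a microsomal member, was at 295 CPM in GC078606 and at 102 to 128 CPM in the other vehicle libraries, and every testosterone library was below 60. Gstm1, of the M class, was at 443 ± 77.01 and 458 ± 27.5 CPM and was not called. Members of the A and M classes are close copies, and reads that fit several may have been counted unevenly. Among 27 antioxidant genes outside this family 3 rose (11.1%), 1 of them steady, and 2 fell (7.41%), shares near those over all genes. With library size as the only scaling 1 rose and 5 fell, and without GC078611 alone 1 rose. The 2 that fell were Gpx3 and the quinone reductase gene Nqo1 (log2 -0.56 ± 0.12).

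Amino acid breakdown showed single strong changes. Of 20 kynurenine and NAD genes 4 rose and 1 fell. Kynu was at 28.7, 34.8, 28.4, 27.1 and 31.4 CPM and then at 4.08, 2.54, 3.85, 1.33 and 3.76, while the transaminases that compete for the same substrate, Aadat (181 to 539 CPM, log2 1.57 ± 0.31) and Ccbl1 (85.7 to 275 CPM, 1.68 ± 0.15), rose. Afmid, the formamidase one step earlier, rose by 0.90 ± 0.16. In the hydroxyacid and glyoxylate list 3 of 21 rose and 3 fell, or 1 and 6 with library size as the only scaling. Prodh2, which breaks down hydroxyproline on the way to glyoxylate, was at 108, 145, 148, 94.2 and 119 CPM and then at 39.3, 34.7, 34.5, 28.2 and 29.2, with Hao2 and Gatm the other 2 that fell. Of 22 polyamine genes 3 were called by edgeR, a share near that over all genes, and 5 by DESeq2. Odc1 and Azin1, whose product shields ornithine decarboxylase from degradation (117 to 199 CPM, log2 0.76 ± 0.15), rose, and the polyamine exporter gene Atp13a2 fell without being steady (log2 -0.46 ± 0.14).

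Of 25 hormone receptor genes 2 rose and 3 fell, or 2 and 5 with library size as the only scaling and 1 and 2 without GC078604 and GC078606, with the growth hormone receptor gene Ghr rising from 559.8 ± 149 to 1010.1 ± 117 CPM and Igf1r from 47.3 ± 12.96 to 87.5 ± 9.31. Npr1, the receptor of atrial natriuretic peptide, fell by 0.45 ± 0.11 on the log2 scale. Of 28 transcription factors of the tubule and of sex bias 4 rose and 5 fell, 2 of the latter steady, and 2 fell without GC078604 and GC078606. Bcl6, a repressor that opposes STAT5 in the liver, was at 40.2, 62.5, 10.2, 22.1 and 24.8 CPM with vehicle and at 98.9, 119.8, 209, 178 and 149.7 with testosterone. The vehicle libraries spread over 6-fold, from GC078604 to GC078603, and still none reached the testosterone range. The bile acid receptor gene Nr1h4 (0.83 ± 0.13) and Hnf4a (0.31 ± 0.09, and not called with library size as the only scaling) rose, while the xenobiotic receptor gene Nr1i2 (-1.45 ± 0.16) and Cebpa (-0.88 ± 0.16) fell. In growth signalling, where 5 of 31 rose and 5 fell (3 rose without GC078603 alone), Met, the receptor of hepatocyte growth factor, rose from 164 ± 23.4 to 313 ± 36.6 CPM. Erbb2 (-0.66 ± 0.11), Igfals, which stabilises IGF in plasma (-1.13 ± 0.20), and Igfbp1 (-2.01 ± 0.42) fell.

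In the renin-angiotensin system Agt, which encodes the precursor of angiotensin, fell from 127 ± 22.7 to 51.8 ± 6.65 CPM, whereas the peptidase genes Ace (109.9 to 327 CPM) and Anpep (log2 0.57 ± 0.11) rose. They stand among 3 risers and 3 fallers of 16 genes, with 1 faller left without GC078604 and GC078606 and also without GC078604, GC078608, GC078609 or GC078610 alone. Of 26 genes of vitamin D, phosphate and calcium handling 2 rose (7.69%) and 4 fell (15.4%), 2 of the latter steady. With library size as the only scaling none rose and 7 fell. For phosphate, the apical carrier gene Slc34a3 fell from 75.4 ± 8.78 to 36.00 ± 5.52 CPM, and its partner Slc34a1 did not pass the test (5637 ± 1467 and 6363 ± 716 CPM). Of 19 gluconeogenesis and ammonia genes 5 rose (26.3%), 3 of them steady, and 2 fell (10.5%). With library size as the only scaling 1 rose and 5 fell. Fbp2, the muscle-type fructose bisphosphatase, changed by -1.58 ± 0.15. Of 29 transport genes of the distal nephron and collecting duct 1 rose (3.45%) and 4 fell (13.8%), against 9.36% and 6.36% over all genes. Of the 4 that fell 1 was steady. With library size as the only scaling 13 were lower, without GC078604 and GC078606 none, and without GC078606 alone or GC078610 alone 1. The steady ones were Scnn1a, a subunit of the epithelial sodium channel (log2 -0.58 ± 0.15), and the cotransporter gene Slc12a2 (0.78 ± 0.19). Of 20 clock genes 1 was called by edgeR, Rora (log2 0.54 ± 0.17), and not steadily, a share of 5.0% higher. The count depended on the method: 4 were higher by DESeq2 and 4 without GC078603 alone. None was called with library size as the only scaling or without GC078604 and GC078606. The median of the list was 0.27, and 14 of the 20 had a log2 change above 0. Of 36 lysosomal enzymes 6 were higher and 5 lower, or 4 and 9 with library size as the only scaling, and 3 were lower without GC078604, GC078606 or GC078610 alone and 2 without both GC078604 and GC078606. Gusb was at 32.4, 34.5, 36.9, 36.4 and 42.01 CPM and then at 114, 115, 103, 146 and 145, a rise in every library, while Hexa (-0.60 ± 0.12) and Gaa (-0.49 ± 0.11), which degrade gangliosides and glycogen, fell.

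Plasma protein genes, 14 of 31 lower and 3 higher, depended on single libraries: 5 of the 14 calls were steady, and 10 were left without GC078604 and GC078606 and 9 without GC078606 alone. For Fgg, a fibrinogen chain, vehicle library GC078606 held 323 CPM against 19.7, 18.6, 24.9 and 30.8 in the others, and without it the log2 change of -3.55 became -1.76. Apoe, the lipid carrier apolipoprotein, fell from 221 ± 52.2 to 80.1 ± 16.8 CPM and Alb, albumin, from 9.81 ± 1.24 to 3.01 ± 0.799. Angptl7, an angiopoietin-like secreted protein, rose from 2.89 ± 0.9897 to 59.7 ± 11.4 CPM, and Serpinf2, the inhibitor of plasmin, from 208 ± 31.01 to 612 ± 30.7. In the list of tubular injury genes 1 of 22 rose, the macrophage growth factor gene Il34 (17.1 to 39.4 CPM), and 4 fell, of which Spp1 was steady, or 8 when scaled by library size alone. The median of that list was -0.66, and -0.19 without GC078604 and GC078606.

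**Figure D4:**
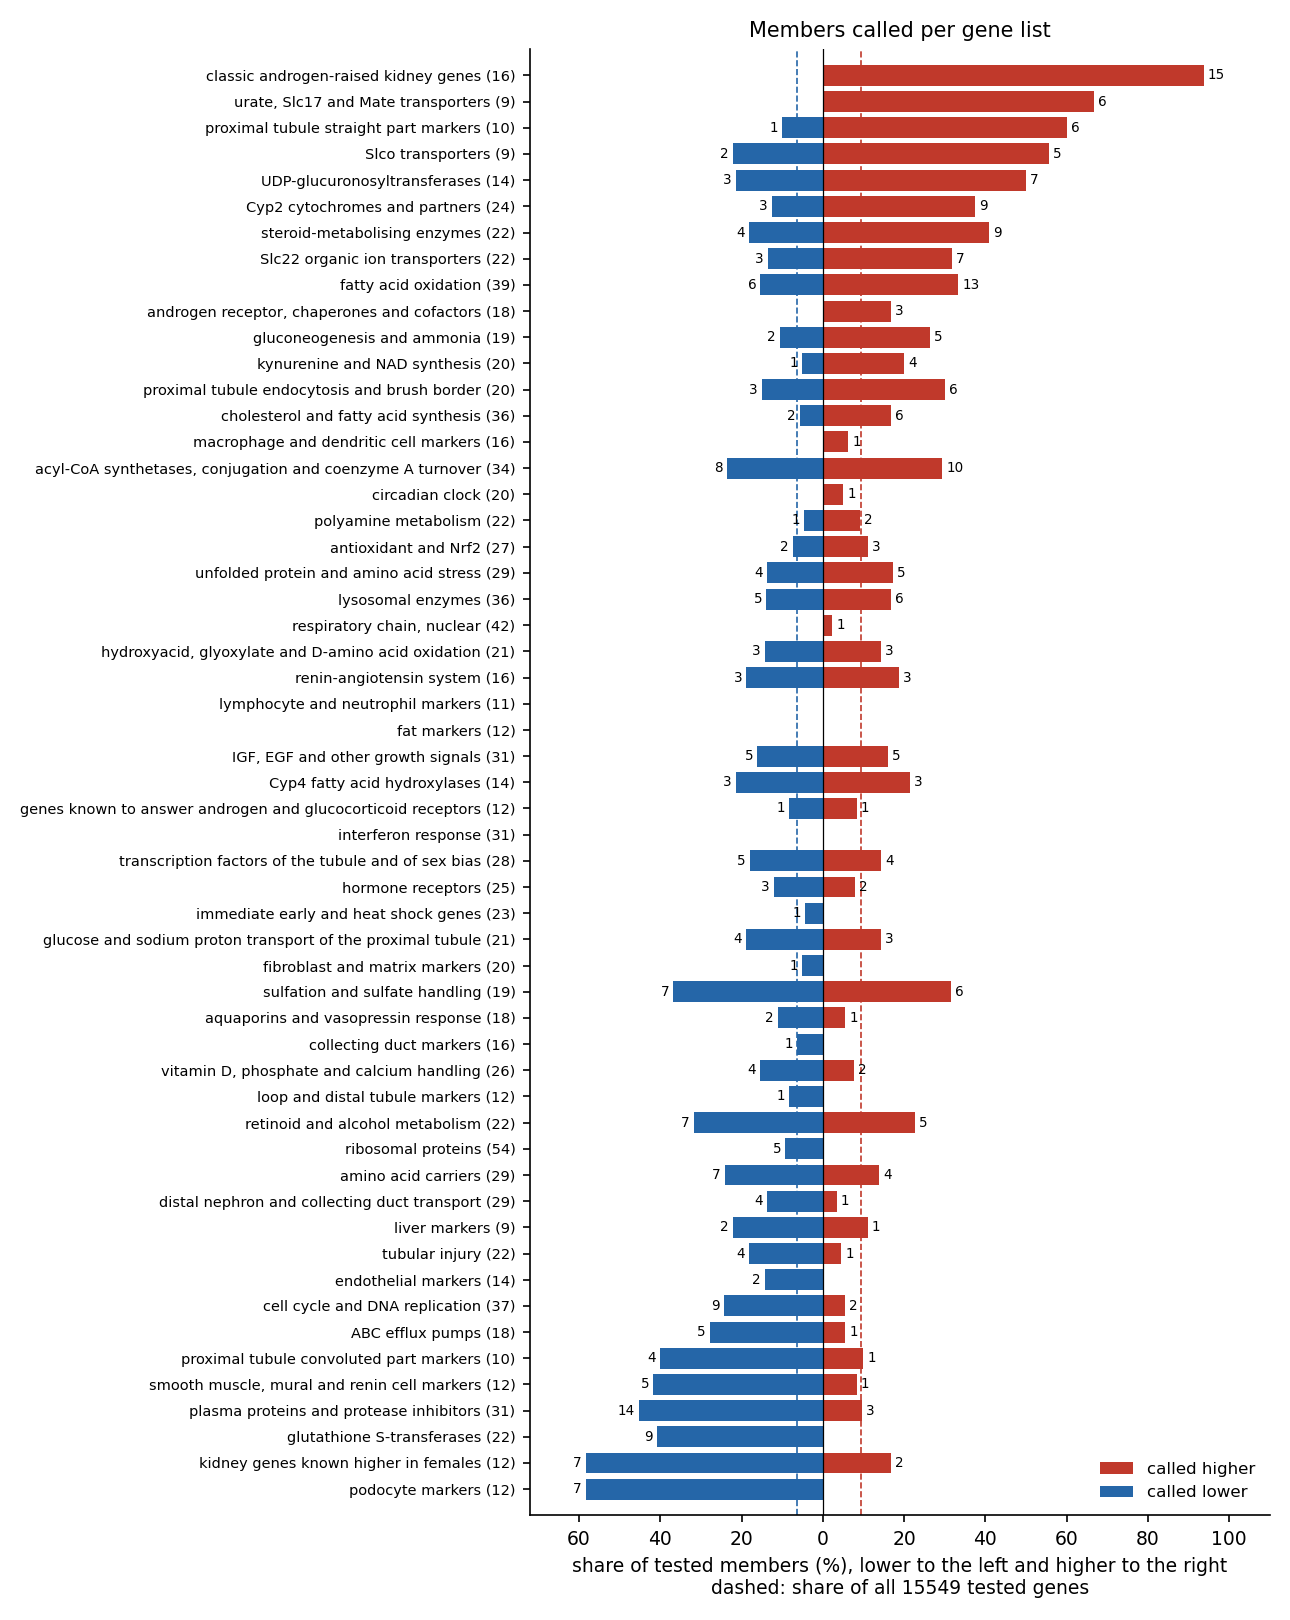
Share of the tested members of each gene list (number tested in parentheses) that were called lower (blue, to the left) or higher (red, to the right), with the number called beside each bar; lists with fewer than 9 tested members are left out. Dashed lines mark the shares over all genes, 6.36% lower and 9.36% higher, and the classic androgen-raised genes (15 of 16) lie farthest to the right.

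Marker genes of other kidney cell types were set beside these results. Among the 10 straight proximal tubule markers 6 rose and 1 fell, and their summed level was 4571 to 6433 CPM with vehicle and 10719.6 to 12751 with testosterone. Slc7a13, Cyp7b1 and Slc22a30 are among them and also among the classic androgen-raised genes. Acy3, an aminoacylase that acts on mercapturic acids, rose from 1094 ± 289 to 3368 ± 417 CPM. For the convoluted part 1 of 10 rose and 4 fell, and the summed levels overlapped (8079 to 14792 and 11043 to 13495). In bulk tissue, fewer cells of a type and less RNA per cell cannot be told apart. Of 12 podocyte markers 7 fell, 6 of them steady, and 7 also fell without GC078604 and GC078606. Podxl, podocalyxin of the foot processes, was at 272 ± 45.3 and 191 ± 13.6, and Synpo, an actin-binding protein, changed by -0.54 ± 0.09. The summed level of the 12 was 680.5 to 952 CPM with vehicle and 631 to 722 with testosterone, which overlap.

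Of 12 smooth muscle, mural and renin cell markers 5 fell, 4 of them steady, and 1 rose without being steady, or 9 and none with library size as the only scaling. Acta2, smooth muscle actin, was at 77.4, 74.9, 85.7, 76.7 and 119.7 CPM and then at 47.8, 57.1, 62.1, 44.5 and 49.5, with GC078606 the highest. Endothelial markers (2 of 14 lower, Eng at log2 -0.50 ± 0.11), fibroblast and matrix markers (1 of 20 lower, Fbln1 at -0.85 ± 0.14) and collecting duct markers (1 of 16 lower) had medians of -0.29, -0.21 and -0.27, and with library size as the only scaling 8, 4 and 8 of their members fell. Without GC078604 and GC078606 it was 5, 1 and none, and without GC078604 alone 8 endothelial markers fell. No lymphocyte, fat, red cell or adrenal marker was called by edgeR or DESeq2, and 0, 0, 0 and 1 of their 11, 12, 6 and 2 tested genes had an unadjusted p below 0.05. No interferon response gene of 31 was called by edgeR and 1 by DESeq2, with 7 at an unadjusted p below 0.05 in edgeR, against 1 lower without GC078604 and GC078606 and 6 lower with library size as the only scaling, and their median was -0.32. Of 54 ribosomal protein genes 5 fell, none of them steady, and 30 had an unadjusted p below 0.05 in edgeR. None of the 54 had a log2 change above 0, and their median was -0.34. With library size as the only scaling 38 fell, without GC078604 and GC078606 none, and none to 15 when single wild type libraries were left out. Of 37 cell cycle and replication genes 9 fell, 5 of them steady, and 2 rose, against 4 and 1 without GC078604 and GC078606 and 18 and 1 with library size as the only scaling. Tyms, thymidylate synthase, fell from 17.8 ± 2.35 to 12.03 ± 1.37 CPM, and Mcm6, a subunit of the replicative helicase, rose from 20.7 ± 2.57 to 34.2 ± 5.17.

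Genes that changed at least 2-fold were in places neighbours on the chromosome. There were 18 stretches with at least 3 such genes in which each lay within 200 kb of the next. How many the same number of genes at random positions would give was not tested. The ends of a stretch were set by its changed genes, so a high share of changed genes inside it is partly built in. In the Slco1 stretch (chromosome 6, 141629518 to 141946962) all 3 tested genes rose, Slco1a1 and Slco1a4 as given above and Slco1b2 from 1 read in all vehicle libraries to 0.891 to 2.14 CPM. All 4 tested genes of the Ugt2 stretch (chromosome 5, 87124960 to 87424203) rose as well, from log2 1.73 for Ugt2a3 to 3.78 for Ugt2b37. Other stretches held genes that moved in opposite directions. The Slc22 stretch (chromosome 19, 8062209 to 8611835) held Slc22a28 and Slc22a30, which were higher, and Slc22a8, which was lower. Slc22a29, between them, was lower in the counts and higher in the deposited log2 values. In the Cyp4 stretch (chromosome 4, 115299046 to 115647723) Cyp4a12a rose from 26.9 ± 9.71 to 354 ± 65.6 CPM and Cyp4b1 rose, while Cyp4a10 fell from 507 ± 289 to 154 ± 82.2. Its neighbour Cyp4a14 was uneven, at 118, 229, 57.2, 732 and 2034 CPM with vehicle, and its call was lost without GC078606. Abcb1a and Abcb1b, both lower, lie beside Crot, which rose. Angptl7 lies within the bounds of Mtor on the opposite strand. No exon overlap of the 2 genes was found in GENCODE M21, but the annotation used for counting is not given. Mtor encodes the kinase of the growth-promoting complexes mTORC1 and mTORC2, and it was at 169.7, 174, 135, 203 and 119 CPM with vehicle and at 384, 449, 385, 533 and 538 with testosterone. Reads of close paralogs in such stretches can be counted for the wrong copy, so the split within a family is less certain than its sum.

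**Figure D5:**
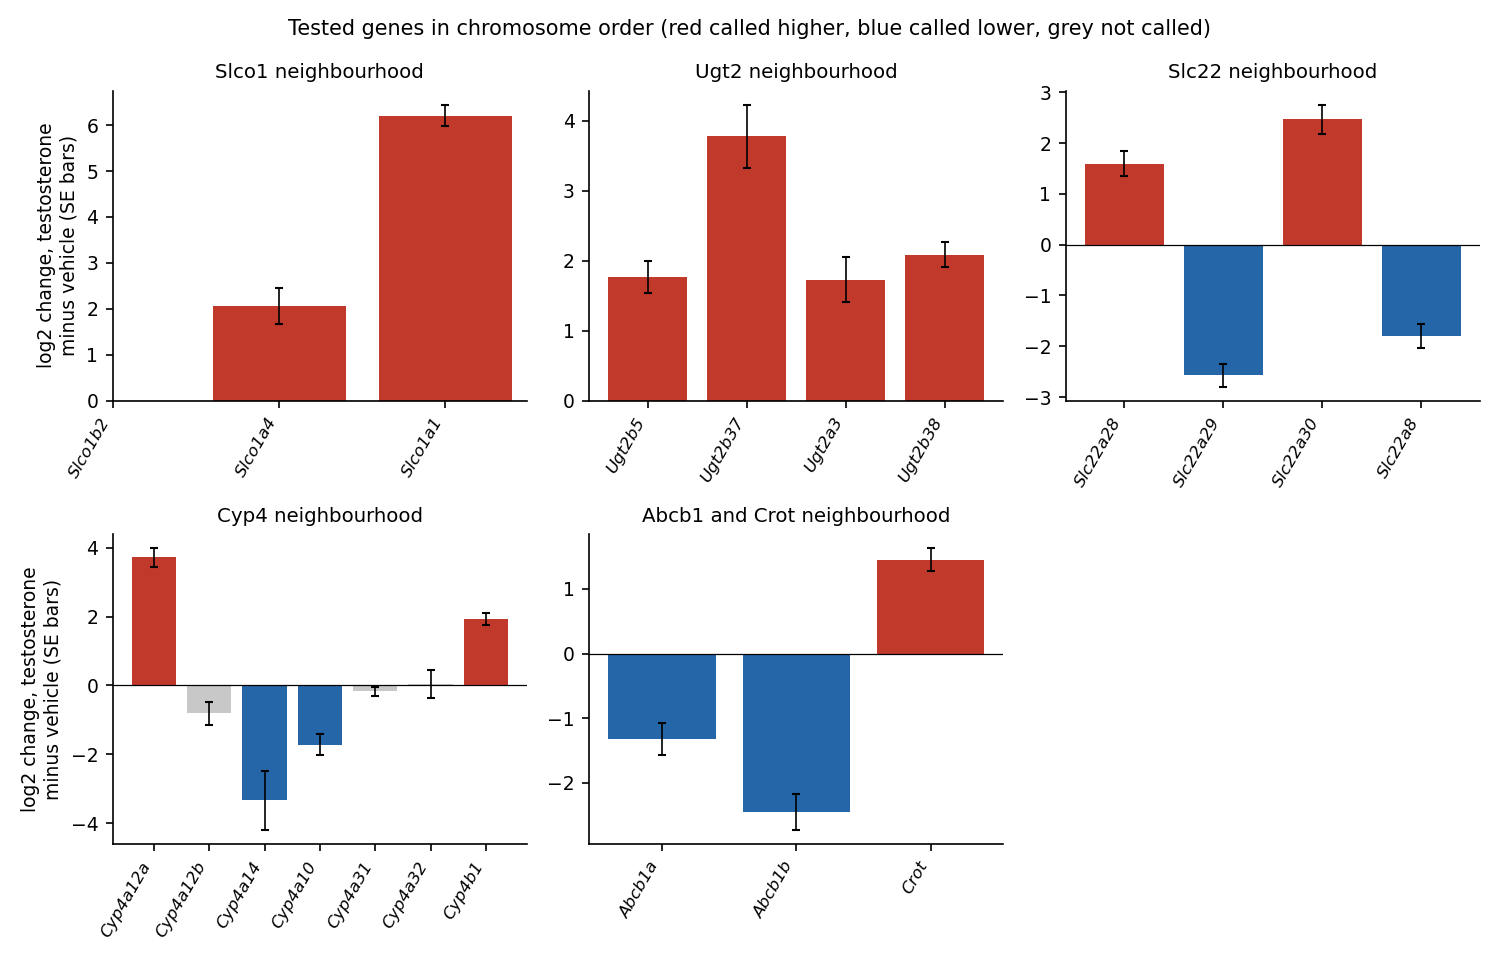
Log2 change with testosterone (vertical axis, SE as error bars) of the tested genes in 5 of the 18 stretches, in chromosome order (horizontal axis, gene names); red genes were called higher, blue ones lower and grey ones not called. Slco1b2, with 1 read over the vehicle libraries, has no bar; the Slco1 and Ugt2 genes share 1 direction, and those of the Slc22 and Cyp4 stretches do not.

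The promoter sequences of changed genes were searched for the androgen response element, an inverted repeat of the arm TGTTCT with any 3 bases between the copies, and for a single arm on either strand. RefSeq windows (GRCm38.p6) of 250 bases before to 50 bases after a start site were matched by symbol to 10975 of the tested genes, with 14050 windows. The full element with at most 2 of its 12 fixed letters changed was in 162 windows (1.15%), in 5 of 316 windows of genes that rose at least 2-fold (1.58%) and in 3 of 167 of genes that fell at least 2-fold (1.8%). The exact element was in 2 windows, neither of a called gene. Among genes that rose, 3 with a match before the start are shown because the match is at hand in the window of a clear responder. Akr1c14 and Adh1 are described above, and Nat8, an acetyltransferase gene chosen after its values were seen, went from 124 ± 35.9 to 356 ± 22.95 CPM. Capitals mark the matched stretch, and the lines give 5′ to 3′ on the strand of the gene.

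Akr1c14 (chr13:4059354-4059428, plus strand): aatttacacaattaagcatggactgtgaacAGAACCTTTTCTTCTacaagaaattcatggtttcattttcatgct
Adh1 (chr3:138277335-138277409, plus strand): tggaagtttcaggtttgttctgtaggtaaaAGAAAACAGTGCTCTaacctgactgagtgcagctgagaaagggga
Nat8 (chr6:85836858-85836906, minus strand): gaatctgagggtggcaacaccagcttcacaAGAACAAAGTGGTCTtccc

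In Nat8 11 of the 12 fixed letters match and in Akr1c14 and Adh1 10 of 12, and the matches end 4, 192 and 205 bases before the start site. The single arm on either strand, which a full match may contain, was in 1819 of the 14050 windows (12.9%). It was in 50 of 316 windows (15.8%) of genes that rose at least 2-fold and in 41 of 167 (24.6%) of those that fell at least 2-fold, and in 12 of 87 (13.8%) of those that rose at least 4-fold. Counted by gene, it was in 15.3% of all genes with a window, in 19.1% of those that rose at least 2-fold, in 14.1% of those that rose at least 4-fold and in 25.2% of those that fell at least 2-fold. The windows differed in base composition. Median GC content was 60.3% over all windows, 56.3% for genes that rose at least 2-fold and 54.7% for those that fell at least 2-fold. For genes that rose at least 4-fold it was 54.3%. The part of base composition in these shares was not tested. With changes of any size included the shares were 13.4% and 14.1% of windows. Windows of 3 genes that fell by more than 2-fold show the arm in capitals.

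Prlr (chr15:10223864-10223905, plus strand): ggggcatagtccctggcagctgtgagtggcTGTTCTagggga
Cyp2d26 (chr15:82794272-82794337, minus strand): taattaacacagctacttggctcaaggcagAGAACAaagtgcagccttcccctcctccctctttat
Alpl (chr4:137766610-137766675, minus strand): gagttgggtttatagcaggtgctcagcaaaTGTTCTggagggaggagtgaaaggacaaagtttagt

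The arms end 6, 56 and 164 bases before the start, for Prlr at 1 of its 3 listed start sites and for Alpl, as for Nat8, at 1 of 2. A match of letters is a description of the window and shows no binding.

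The response was last set beside that of ARLmon/Y kidneys, for which edgeR called no gene (0 of 15549, with 813 at an unadjusted p below 0.05, and 0 by DESeq2 and limma-voom). The difference between the genotypes' responses was called for 741 genes (4.77%), 730 of them among the 2444 that changed in wild type. Because the difference contains the wild type response with its sign reversed, this overlap is partly built in. Nudt19 was at 253 ± 80.6 CPM under vehicle and 286 ± 63.5 under testosterone in ARLmon/Y, and its response there differed by -2.78 ± 0.27 on the log2 scale (ARLmon/Y minus wild type, edgeR adjusted p = 8.03e-07). Mtor was at 113 ± 13.2 CPM under vehicle and 138 ± 29.97 under testosterone, with a difference of -1.23 ± 0.22 (edgeR adjusted p = 0.00116). Acsm3 was at 13.1 ± 5.46 CPM under vehicle and 14.1 ± 2.48 under testosterone, below the wild type vehicle level, and differed by -3.85 ± 0.34 (edgeR adjusted p = 2.61e-07). Slc22a8, which fell in wild type, was at 1245 ± 188 CPM under vehicle and 1055 ± 116 under testosterone (difference 1.56 ± 0.32, edgeR adjusted p = 0.0046). Where a gene changed in wild type and its difference was not called, as for Aldh2 (0.21 ± 0.14, edgeR adjusted p = 0.475), unequal responses were not shown.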

How the data were processed

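RNA-seq counts per gene came from 4 tables that the authors deposited, each of 10 libraries and 2 groups. Per the submitters' processing notes, HISAT2, SAMtools 1.5, HTSeq and DESeq2 were used with build mm10; settings, annotation and strand are not given in the sources used here. The tables were joined by gene symbol (24762 genes). A library's value for a gene was set to 0 where no table holding that library listed the gene (12045 values in 1713 genes). This was done since the tables list only genes with at least 2 reads. A further table that the authors deposited holds log2 expression of 20550 genes, with unstated scaling, and it served as an alternative.

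Counts were filtered (filterByExpr), scaled (TMM) and fitted in edgeR 4.0.16 (R 4.3.3) with the 4 groups of 5 libraries as means. The contrast was testosterone minus vehicle in wild type, with Benjamini-Hochberg adjustment over 15549 genes and 0.05 as the threshold. Total counts were 8342000 to 38101526 per wild type library, and genes with few reads are the least precise. Alternatives were DESeq2 1.42.0, limma 3.58.1 (voom, and the log2 table), other scalings and filters, thinned counts, the wild type libraries alone, and libraries left out. The fits were tested on simulated data. Positions are from GENCODE M21 (14776 genes matched by symbol), and since it is not stated whether the counting used the strand that the kit marks, reads of overlapping genes cannot be told apart.

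The gene lists and the members named were chosen with earlier results of these data known. Named were steady calls: the 15 largest changes each way above 5 CPM, the 10 largest gains and losses in CPM, and up to 6 called members of a list. Others, such as Nat8, Mtor, Mt1, Rora and Atp13a2, were chosen after their values were seen. Some genes that the rule names are not reported here.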

Additional observations from a re-analysis of the deposited data

Results flagged for a closer look

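For 366 groups of 5 libraries, those of the 183 named genes with vehicle and with testosterone, 1 library was tested for lying far from the other 4 (gap to its neighbour above 0.71 of the group's range). Independent, normally distributed values do so in about 1 of 20 groups. It was found in 35 groups, 13 times for testosterone library GC078611 and 8 times for vehicle library GC078606. These groups share the same 10 libraries, and their genes were chosen partly by their values without single libraries. The 35 can therefore not be set against 1 of 20. Library GC078611 held Abcc4 at 37.3 CPM, Acsl1 at 303 CPM, Adh1 at 1976 CPM, Cyp4a10 at 298 CPM and Cyp4a14 at 238 CPM, above the other testosterone libraries. It also held Fkbp5 at 267 CPM, Slc13a1 at 287 CPM, Slc38a3 at 38.5 CPM and Slco1a4 at 25.5 CPM, above the other testosterone libraries. Library GC078611 held Acy3 at 2642 CPM, Cndp2 at 2123 CPM, Slc22a6 at 1391 CPM and Slc34a1 at 5111 CPM, below the other testosterone libraries. Library GC078606 held Acta2 at 119.7 CPM, Fgg at 323 CPM, Gc at 135 CPM, Il34 at 30.2 CPM and Kcnip2 at 20.9 CPM, above the other vehicle libraries. It also held Lipo2 at 0.455 CPM, Mgst1 at 295 CPM and Pla2g5 at 19.9 CPM, above the other vehicle libraries. Library GC078604 held Cndp2 at 1292 CPM, Kap at 28612 CPM, Odc1 at 263 CPM, Tbx10 at 1.39 CPM and Ugt2b38 at 696 CPM, above the other vehicle libraries. Library GC078604 held Abcb1a at 4.73 CPM, below the other vehicle libraries. Library GC078610 held Slc5a8 at 529 CPM and Slc7a13 at 1265 CPM, above the other testosterone libraries. Library GC078610 held Lgmn at 581 CPM, below the other testosterone libraries. Library GC078605 held Aldh8a1 at 406 CPM and Slco1b2 at 0.0263 CPM, above the other vehicle libraries. Library GC078608 held Cebpa at 26.5 CPM and Hsd3b7 at 22.1 CPM, above the other testosterone libraries. Library GC078607 held Cycs at 121 CPM, above the other testosterone libraries.

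The response differed between the genotypes by the test of the difference itself (edgeR, adjusted p below 0.05) for 4 genes whose values the text gives for both. The log2 response in ARLmon/Y minus that in wild type was -2.78 for Nudt19, -1.23 for Mtor, -3.85 for Acsm3 and 1.56 for Slc22a8. Of the 3 that rose in wild type the difference was negative, and for the 1 that fell it was positive. The difference contains the wild type response with its sign reversed. These signs therefore follow largely from the choice of genes with a clear change in wild type.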

How the results depend on the processing

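Of the 31 other settings, most kept the counts of calls within 1.5 times. The number of genes called was 3710 with limma on the deposited log2 values, against 2444. With library size as the only scaling 897 genes were higher and 2687 lower, and the summed gain was 113591 CPM. The number lower was 2677 in the deposited log2 values and 658 without GC078604 and GC078606. Leaving out each of the 20 libraries in turn gave 1753 to 2644 called genes, 1139 to 1574 higher and 614 to 1070 lower, the lowest count each time without GC078610. The same fits gave 470 to 579 calls of at least 2-fold, 579 to 967 calls of the difference between genotypes, 254 to 338 calls within the gene lists, a summed gain of 138376 to 148516 CPM and a summed loss between -42301 and -34822. The cause of these shifts was not tested. Of the 183 genes named, 163 kept direction and side of the threshold throughout. Slc22a29 reversed, to a log2 change of 0.65 in the deposited log2 values. No paired analysis was possible because the columns of the count tables carry no replicate number. Depth limits genes with few reads: 6 called genes had at most 3 reads in a group, and their size of change is not measured.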
